A study of Mus musculus with 6 samples.

Results

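The 45 genes described here make up the TGF-beta and BMP signalling module of the retina, from ligands through receptors and Smads to the Id targets. They were taken by gene symbol from a fixed list, and all 45 were found among the 28627 genes of the deposited table. Of the 45, 44 had enough reads to enter the test, against 16681 genes of the whole table, and the exception was Lrg1. The retinas were taken at postnatal day 15 from mouse pups that had gone through oxygen-induced retinopathy, a model in which high oxygen makes retinal capillaries regress and the later return to room air drives new vessels to sprout. There were 3 Emcn+/+ libraries and 3 Emcn-/- libraries from littermates, and both genotypes went through the model, so no retina outside it enters any comparison. Emcn encodes endomucin, a sialomucin on the luminal surface of endothelial cells, and the labels give no promoter or Cre driver for the deletion. Whether the libraries of a genotype are different animals is not stated in the labels, and p-values therefore reflect only how much these libraries vary, which may be partly technical.

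Ligands of the TGF-beta family bind pairs of type I and type II receptor kinases on the cell surface. TGF-beta, activins and GDF11 mainly act through Smad2 and Smad3, whereas BMPs act through Smad1, Smad5 and Smad9, and both branches share Smad4. In endothelial cells the type I receptor Acvrl1 and the co-receptor Eng carry BMP9 and BMP10 signals that restrain sprouting, and loss of either gene causes arteriovenous malformations in retinal vessels. Id1, Id2 and Id3 are direct targets of BMP Smads, and Smad6 and Smad7 feed back on the pathway.

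Values are normalised reads, that is, read counts divided by 1 scaling factor per library, and are not adjusted for gene length unless stated. Libraries held 14865868 to 17087621 reads assigned to genes, and 3 reads, the upper limit that a count of 0 allows, were worth 2.77 to 3.28 normalised reads. Emcn checked the labels: the Emcn+/+ libraries 1, 2 and 3 gave 93.3, 80.6 and 100.5 normalised reads, and the Emcn-/- libraries gave 1.95, 1.04 and 4.62. It differed by -4.83 ± 0.40 on the log2 scale (SE, limma adjusted p = 0.0143), and no other gene of the 16681 passed. Rod markers summed to 869290 to 1014800 normalised reads per library, so the tissue label held. Some libraries stood apart in other gene groups: the sum of 7 detected lens markers was 47176 in Emcn+/+ 1 against 43.7 to 236 elsewhere, and the interferon response list summed to 8261 in Emcn+/+ 3 against 1150.2 to 1459 elsewhere. All fold changes below are Emcn-/- minus Emcn+/+ on the log2(value + 1) scale, from limma over all 16681 genes with Benjamini-Hochberg adjustment, where 0.05 was the threshold.

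No member of the module passed the test between genotypes. The smallest limma adjusted p was 0.473, and the background was 1 gene in 16681, or 0.00599% of those tested. edgeR and DESeq2 on the recovered reads also called 0 members, although DESeq2 gave an adjusted p for only 17 of them, the smallest being 0.163 for Bmpr2. Over the 44 tested members the log2 fold changes ran from -0.43 to 0.76 with a median of 0.02, and 20 of them lay within 0.1 of 0. The median over all tested genes was 0.01. Positive values were found for 28 members (63.6%) and negative ones for 16, where 52% of all genes were positive.

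At an unadjusted p under 0.05, 5 members were higher in Emcn-/- retinas and 1 was lower, against 3.67% and 4.47% of all tested genes in those directions. The 5 were the co-receptor gene Tgfbr3, the decoy receptor gene Bambi, the latent TGF-beta binding protein gene Ltbp3, the target Id1 and the BMP antagonist gene Nog. The 1 lower member was Bmpr2, the type II BMP receptor. The number in either direction was 6, and it was 4 or 8 when another library than Emcn+/+ 3 was left out. Without Emcn+/+ 3 it was 10, while the share of all genes at that threshold went from 8.14% to 17.2%. In 4 members every Emcn-/- library lay above every Emcn+/+ library, against 7.48% of all genes: Tgfbr3, Bambi, Ltbp3 and Bmp5. In 0 members did every Emcn-/- library lie below, against 6.94% of all genes.

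**Figure D1:**
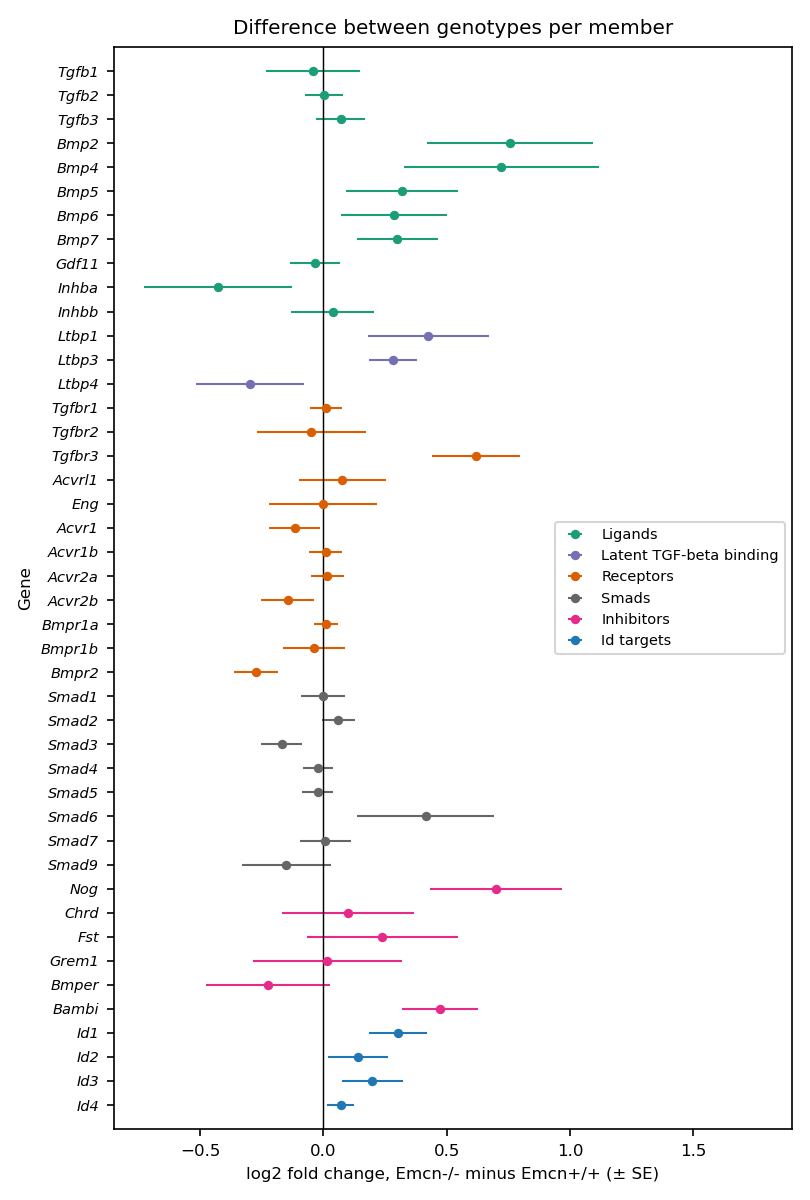
Log2 fold change of the 44 tested members, Emcn-/- minus Emcn+/+, on the log2(normalised reads + 1) scale. Points are limma estimates, bars are ± 1 SE, colours mark the role in the pathway, and genes are in the order of ligands, latent TGF-beta binding proteins, receptors, Smads, inhibitors and Id targets. The estimates run from -0.43 (Inhba) to 0.76 (Bmp2), and 20 of them lie within 0.1 of 0.

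By role, the 11 ligands had 8 positive and 3 negative estimates with a median of 0.07, and the 3 latent TGF-beta binding protein genes had 2 and 1 with a median of 0.28. The 12 tested receptors were split 6 and 6 with a median of 0.00, and the 8 Smads 3 and 5 with a median of -0.01. The 6 extracellular or membrane inhibitors had 5 positive estimates and a median of 0.17. The 4 Id genes were positive in all cases with a median of 0.17. No group had a member past the adjusted threshold, and the spread within each group is shown by library in the map of members.

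**Figure D2:**
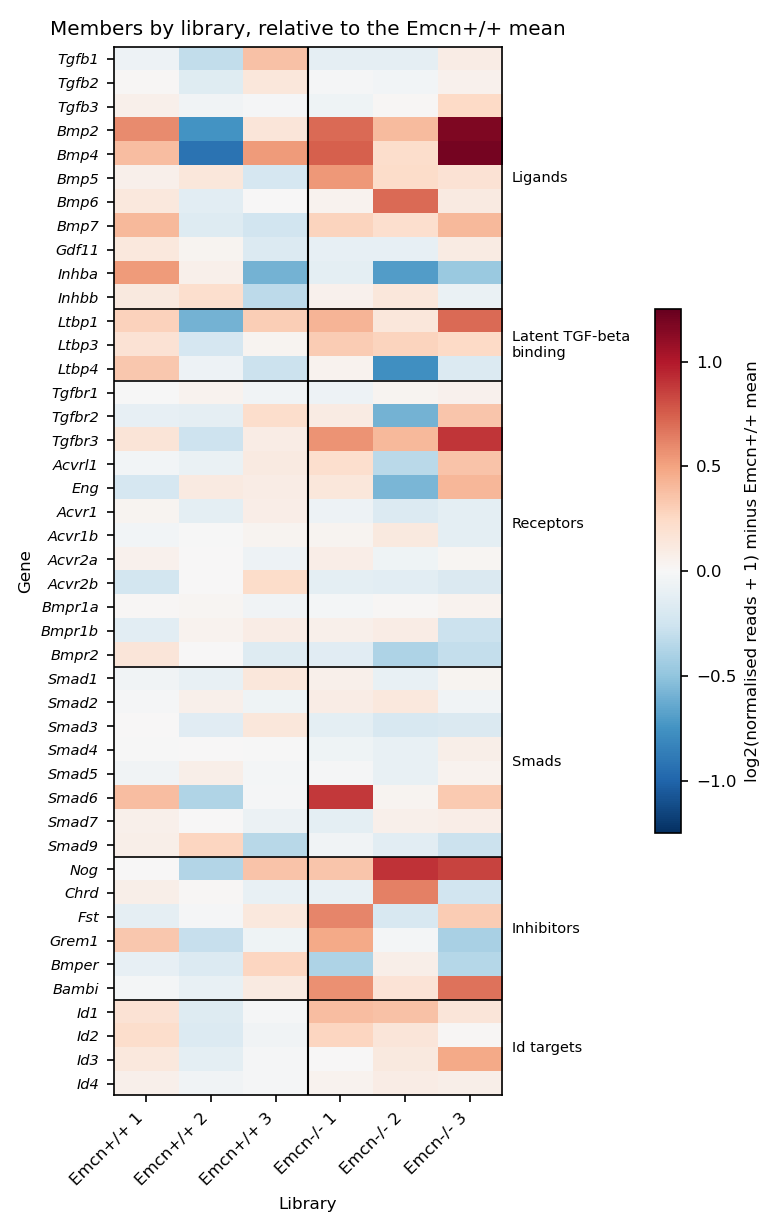
Level of the 44 tested members in each of the 6 libraries, as log2(normalised reads + 1) minus the mean of the 3 Emcn+/+ libraries, with libraries on the x axis and genes grouped by role on the y axis. Red is above and blue below the Emcn+/+ mean. The strongest colours are in Bmp2, Bmp4, Tgfbr3, Nog and Smad6, and the ranges of Tgfbr1, Bmpr1a and Smad4 are narrow.

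The stretches before the start sites of Bmp4 (ligand), Smad6 (feedback inhibitor) and Id4 (the Id gene less tied to BMP signalling) are shown. Each is the 250 bases before the RefSeq start (GRCm38.p6), printed 5′ to 3′ on the strand the RefSeq table gives, and none overlaps an exon of GENCODE M21. Bmp4 lies at chr14:46390670-46390919 (minus strand), Smad6 at chr9:64022060-64022309 (minus strand) and Id4 at chr13:48260866-48261115 (plus strand). The bases after the start were found in GENCODE transcripts for Bmp4 and Smad6, whereas the RefSeq start of Id4 lies before its GENCODE transcript, so its orientation rests on the table. Capitals mark GGCGCC, a GC-rich element bound by BMP Smads.
Bmp4: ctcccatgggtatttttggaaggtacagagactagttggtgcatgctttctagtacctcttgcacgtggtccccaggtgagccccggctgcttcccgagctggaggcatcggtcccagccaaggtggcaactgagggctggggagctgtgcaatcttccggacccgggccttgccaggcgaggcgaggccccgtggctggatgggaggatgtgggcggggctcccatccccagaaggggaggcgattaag
Smad6: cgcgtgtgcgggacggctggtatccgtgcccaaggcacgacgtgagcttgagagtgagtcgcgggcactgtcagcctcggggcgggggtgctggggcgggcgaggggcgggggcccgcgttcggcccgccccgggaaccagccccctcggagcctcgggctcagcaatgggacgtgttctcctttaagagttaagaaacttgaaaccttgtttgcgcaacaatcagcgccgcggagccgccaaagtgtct
Id4: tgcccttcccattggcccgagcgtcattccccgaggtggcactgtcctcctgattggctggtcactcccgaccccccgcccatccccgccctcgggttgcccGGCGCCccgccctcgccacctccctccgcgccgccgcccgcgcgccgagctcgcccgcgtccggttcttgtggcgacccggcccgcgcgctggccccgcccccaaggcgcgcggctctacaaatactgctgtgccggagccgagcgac
Id4 held 1 copy of GGCGCC, and the windows of Bmp4 and Smad6 held 0. None of the 3 held CAGACA or its reverse complement TGTCTG, the core of the element bound by Smad3 and Smad4. Promoter windows were found for 33 of the 45 members (41 windows). GGCGCC was present in 11 of these 41 (26.8%), in Bmpr1a, Bmpr2, Chrd, Grem1, Id2, Id4, Ltbp4, Smad5, Smad9 and Tgfbr1, and in 9.59% of all 32851 windows of the same length. CAGACA on either strand was in 12.2% of member windows and 17.1% of all windows, and the longer palindrome GTCTAGAC was in 0 member windows and in 0.167% of all windows. GGCGCC and GTCTAGAC read the same on both strands, CAGACA was searched in both orientations, and none of these motifs contains another. Base composition was not matched between the windows, and a match is a description of the letters only.

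The 3 TGF-beta ligand genes had estimates close to 0. Tgfb1, the form made by many vascular and immune cells, gave 101, 85.3 and 137 normalised reads in Emcn+/+ and 97.4, 97.5 and 113 in Emcn-/- (log2 fold change -0.04 ± 0.19 SE, limma adjusted p = 0.966). Tgfb2, the form of neurons and glia in the retina, gave 1513, 1350.4 and 1659 against 1487, 1469.9 and 1558 (0.00 ± 0.08, 0.994). Tgfb3 gave 362, 335 and 342 against 333, 351 and 410.3 (0.07 ± 0.10, 0.868). The genotypes overlapped for each of the 3 genes, with the Emcn+/+ libraries of Tgfb1 and Tgfb2 spread wider than those of Emcn-/-. For Tgfb2 the 95% interval of the log2 difference was -0.17 to 0.18, and for Tgfb1, with fewer reads, -0.48 to 0.39. Per kilobase of exon, Tgfb2 stood at 260.1 normalised reads over all 6 libraries, Tgfb3 at 105 and Tgfb1 at 20.8.

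The 6 BMP and GDF ligand genes had 5 positive estimates and a median of 0.31, and the largest estimates of the whole module were among them. Bmp2, a ligand that induces Id genes in endothelial cells (ENSMUSG00000027358, GRCm38 chromosome 2, 133552159 to 133562885, plus strand), gave 103, 39.9 and 75.4 normalised reads in Emcn+/+ and 111, 89.2 and 153 in Emcn-/-. The means were 72.6 ± 31.5 and 118 ± 32.6 (SD, n = 3 each), with a log2 fold change of 0.76 ± 0.34 (SE, limma adjusted p = 0.612). Emcn+/+ 2 was the lowest library and Emcn-/- 3 the highest, and Emcn-/- 2 lay below Emcn+/+ 1, so the genotypes overlapped.

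Bmp4, which patterns the dorsal eye and is close to Bmp2 in sequence, gave 74.7, 29.7 and 83.0 against 96.4, 66.4 and 132 (62.4 ± 28.7 and 98.3 ± 32.9; log2 fold change 0.72 ± 0.39 SE, limma adjusted p = 0.673). Its libraries were ordered much like those of Bmp2, with Emcn+/+ 2 lowest, Emcn-/- 3 highest and Emcn-/- 2 within the Emcn+/+ range. Without Emcn+/+ 2 the log2 fold changes were 0.38 for Bmp2 and 0.26 for Bmp4, and no other single library left out gave a lower value for either gene. For both genes the 95% interval of the difference with all libraries ran from below 0 (-0.01 for Bmp2 and -0.17 for Bmp4) to 1.52 and 1.62.

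Bmp7, a ligand needed for eye formation, gave 340.2, 229.9 and 217 against 313, 298 and 342 (log2 fold change 0.30 ± 0.16 SE, limma adjusted p = 0.672). Emcn+/+ 1 reached the level of the Emcn-/- libraries, and the other 2 Emcn+/+ libraries lay below them. Bmp6, known as a signal from liver endothelium that induces hepcidin in hepatocytes, gave 69.5, 57.5 and 63.3 against 65.2, 104 and 68.4 (0.29 ± 0.21, 0.740). Only Emcn-/- 2 stood above the range of the other libraries, and without it the estimate was 0.08. Reads of Bmp6 and Txndc5 cannot be fully told apart where they share 5.74% of the exonic bases of Bmp6 on opposite strands, since the strand of the libraries is not known and Txndc5 had a mean of 1183 normalised reads against 71.3.

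Bmp5 was higher in every Emcn-/- library (46.7, 37.3 and 36.0) than in any Emcn+/+ library (33.2, 35.2 and 27.3), by a narrow gap (0.32 ± 0.23 SE, limma adjusted p = 0.724). Its exons overlap those of Gm26903 on the opposite strand over 46.7% of their length, and Gm26903 itself had a mean of 0.35 normalised reads. Gdf11 was level (-0.03 ± 0.10). Of the activin and inhibin subunits, Inhba had the lowest estimate of the module (-0.43 ± 0.30, 0.721) with 89.2, 64.0 and 40.4 against 56.5, 37.3 and 44.4 normalised reads. Emcn+/+ 1 and 2 were its highest libraries, while Emcn+/+ 3 lay among the Emcn-/- libraries, and the estimate was -0.16 without Emcn+/+ 1 and -0.72 without Emcn+/+ 3. Inhbb was at 0.04 ± 0.17.

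**Figure D3:**
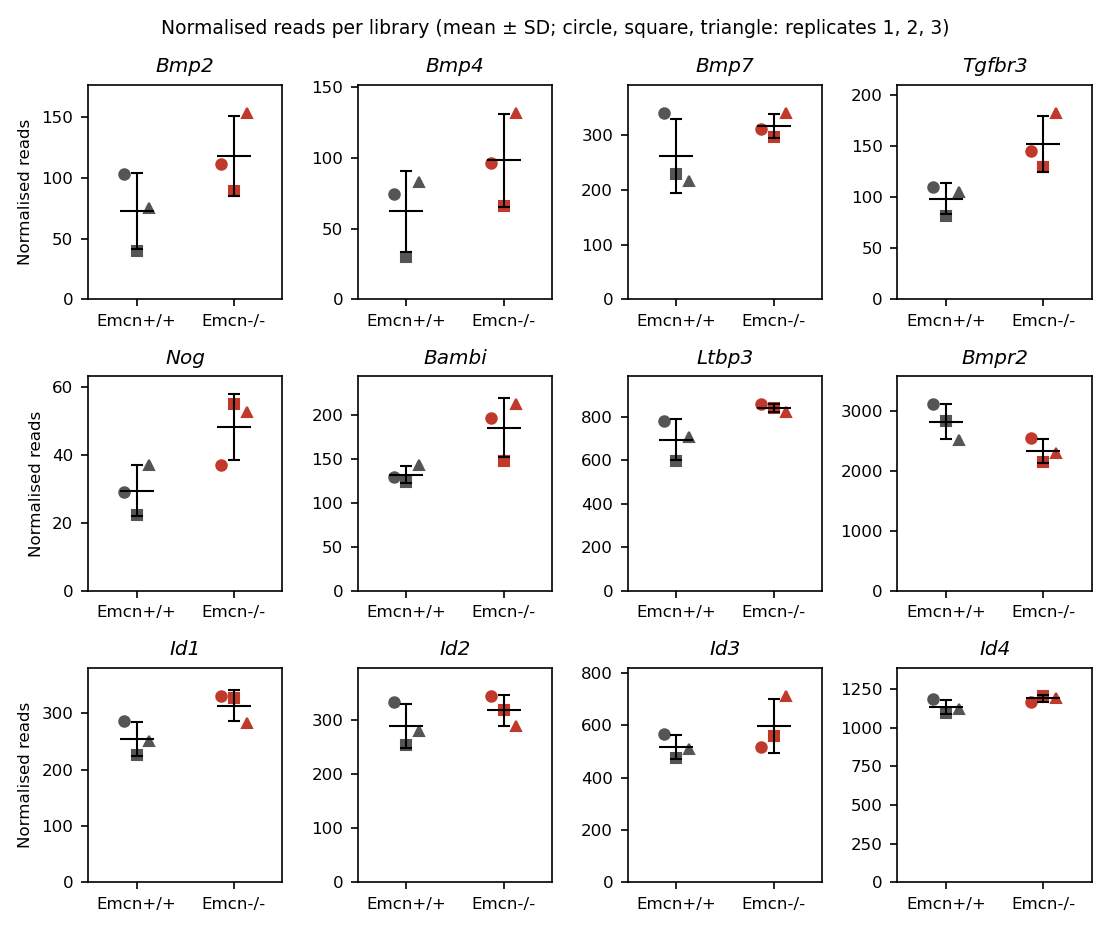
Normalised reads of 12 members in each library, with the Emcn+/+ libraries in grey and the Emcn-/- libraries in red (circle, square and triangle for replicates 1, 2 and 3), and the mean ± SD in black (n = 3 each, y axis from 0). The genotypes do not overlap for Tgfbr3, Bambi and Ltbp3. Emcn+/+ 2 is the lowest library for Bmp2, Bmp4, Tgfbr3, Nog, Bambi, Ltbp3 and all 4 Id genes.

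The secreted TGF-beta ligands are held in the matrix by latent TGF-beta binding proteins. Ltbp3 (ENSMUSG00000024940, GRCm38 chromosome 19, 5740904 to 5758532, plus strand) gave 783, 597 and 709 normalised reads in Emcn+/+ and 859.8, 840.2 and 824 in Emcn-/-. The Emcn-/- libraries were close together and all above the Emcn+/+ libraries, with means of 696 ± 93.7 and 841 ± 17.7 (log2 fold change 0.28 ± 0.10 SE, limma adjusted p = 0.522), or 0.18 without Emcn+/+ 2. Ltbp1 gave 222, 120.5 and 225 against 245, 200.2 and 299 (0.43 ± 0.25, 0.682), and without Emcn+/+ 2, its lowest library, the estimate was 0.13. Ltbp4 gave 389.9, 296 and 257 against 319, 182 and 274 (-0.30 ± 0.22, 0.733), and without Emcn-/- 2, its lowest library, the estimate was -0.06.

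The TGF-beta receptor kinases had estimates close to 0. Tgfbr1, the type I receptor, gave 710.4, 733 and 690.2 normalised reads in Emcn+/+ and 682, 727 and 740.3 in Emcn-/- (log2 fold change 0.01 ± 0.06 SE, limma adjusted p = 0.975). This was among the most even members, with a 95% interval of -0.14 to 0.16. Tgfbr2, the type II receptor, gave 244, 242 and 305 against 280.4, 173 and 334 (-0.05 ± 0.22, 0.966). Here the means were close while the Emcn-/- libraries spread to both sides of the Emcn+/+ range. The 95% interval was wide, -0.55 to 0.45.

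The endothelial receptors spread in the same way as Tgfbr2. Acvrl1, the type I receptor for BMP9 and BMP10 also known as ALK1, gave 178, 172 and 197 normalised reads against 211, 144 and 233 (log2 fold change 0.08 ± 0.18 SE, limma adjusted p = 0.925). Eng, the endothelial co-receptor endoglin (ENSMUSG00000026814, GRCm38 chromosome 2, 32646595 to 32682669, plus strand), gave 445, 557 and 548 against 569, 346 and 687 (-0.00 ± 0.22, 0.998). For both genes Emcn-/- 2 was the lowest and Emcn-/- 3 the highest of the 6 libraries, and the SD of Eng was 62.3 in Emcn+/+ and 173 in Emcn-/-. Without Emcn-/- 2 the estimates were 0.28 for Eng, 0.28 for Acvrl1 and 0.22 for Tgfbr2, and without Emcn-/- 3 they were -0.21, -0.06 and -0.25.

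In sum, endothelial markers shared the low value of Emcn-/- 2 with these receptors, but were not highest in Emcn-/- 3. The 12 endothelial markers, none of them a module member, summed to 6944, 6893 and 7614 normalised reads in Emcn+/+ and 6749.6, 4587 and 7285 in Emcn-/-, with Emcn-/- 2 the lowest library and Emcn+/+ 3 the highest. The marker genes had 3 positive and 9 negative estimates with a median of -0.21, and none was at 0 in any library. The mural cell markers, of pericytes and smooth muscle, summed to 4853, 4632 and 4559 against 5511, 3565 and 6037, with the same Emcn-/- libraries lowest and highest as for Eng. Most of that sum was Rgs5 (3615, 3519 and 3409 against 4297, 2641 and 4512). The 9 tested mural markers had 3 positive and 6 negative estimates with a median of -0.13. Acta2 was higher in every Emcn-/- library (103, 89.0 and 128 against 181, 224 and 251). Its log2 fold change was 1.04 ± 0.18 (SE, limma adjusted p = 0.340). In whole retina, fewer cells of a type and less RNA per cell cannot be told apart. The part of vessel content in the values of Eng, Acvrl1, Tgfbr2, Ltbp4 and Bmpr2 was not tested.

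Tgfbr3, betaglycan, is a co-receptor that presents TGF-beta2 to Tgfbr2 and also binds inhibin, and it had the smallest p of the module. Tgfbr3 (ENSMUSG00000029287, GRCm38 chromosome 5, 107106570 to 107289629, minus strand) gave 109.9, 81.6 and 105 normalised reads in Emcn+/+ and 145, 129.7 and 183 in Emcn-/-. Every Emcn-/- library lay above every Emcn+/+ library. The means were 98.8 ± 15.1 and 153 ± 27.4 (SD, n = 3 each), with a log2 fold change of 0.62 ± 0.18 (SE, 95% interval 0.21 to 1.02, limma adjusted p = 0.473). With each library left out in turn the estimate ranged from 0.48 to 0.73.

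Bmpr2 was the member with the lowest p among those with a negative estimate. It encodes the type II BMP receptor that pairs with Acvrl1, Acvr1, Bmpr1a and Bmpr1b (ENSMUSG00000067336, GRCm38 chromosome 1, 59763400 to 59879014, plus strand). It gave 3112, 2826 and 2520.5 normalised reads in Emcn+/+ and 2541, 2153 and 2292 in Emcn-/- (log2 fold change -0.27 ± 0.09 SE, 95% interval -0.47 to -0.07, limma adjusted p = 0.514). Emcn+/+ 1 and 2 were the highest libraries, and Emcn+/+ 3 lay just below Emcn-/- 1, so the genotypes overlapped by that pair. The limma adjusted p was 0.0669 without Emcn+/+ 3, a fit in which 147 genes of the whole table passed. With any other library left out it was between 0.640 and 0.940. Bmpr2 has the longest exonic sequence of the module (17983 bp), and longer genes had lower estimates over the whole table: split into 5 groups by exonic length, the shortest genes had a median of 0.08 and the longest -0.07. With that trend on length removed, the estimate for Bmpr2 was -0.12. Its lowest library was Emcn-/- 2, as for the endothelial marker sum, and the part of vessel content in its values was not tested.

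The remaining receptors were close to level. The type I receptors Bmpr1a (0.01 ± 0.05), Acvr1b (0.01 ± 0.07), Bmpr1b (-0.04 ± 0.13) and Acvr1 (-0.12 ± 0.10) and the activin type II receptors Acvr2a (0.02 ± 0.07) and Acvr2b (-0.14 ± 0.11) had limma adjusted p from 0.740 to 0.977. Bmpr1a had the tightest 95% interval among them, -0.10 to 0.12. Bmpr1b lies 4.405 Mb from Emcn on chromosome 3, and whether its value depends on that position was not tested. Lrg1, a secreted modulator of endothelial TGF-beta signalling, was detected by 3 reads in Emcn+/+ 2 (2.78 normalised reads) and by 0 reads in the other 5 libraries, at or under the limit that 0 reads allow, so no fold is given.

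The Smads carry the signal to the nucleus, and none of the 8 passed. Smad3 gave 655, 590.4 and 721 normalised reads in Emcn+/+ and 601, 567 and 576 in Emcn-/- (log2 fold change -0.17 ± 0.08 SE, limma adjusted p = 0.643). Emcn+/+ 1 and 3 stood above all Emcn-/- libraries, and Emcn+/+ 2 lay among them. Smad2 (0.06 ± 0.07), Smad1 (-0.00 ± 0.09), Smad5 (-0.02 ± 0.06) and the shared Smad4 (-0.02 ± 0.06) had intervals within 0.21 of 0. Smad9 was at -0.15 ± 0.18, with a wider interval of -0.56 to 0.26.

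Of the inhibitory Smads, Smad6, which acts mainly on the BMP branch, gave 66.4, 38.9 and 50.2 normalised reads against 94.4, 51.9 and 63.8 (log2 fold change 0.42 ± 0.28 SE, limma adjusted p = 0.711). Emcn-/- 1 was the highest library and Emcn+/+ 2 the lowest, and the estimate was 0.18 without the former and 0.23 without the latter. Smad7, which acts on both branches, gave 249.9, 240.1 and 226 against 219, 249 and 253 (0.01 ± 0.10, 0.985). Smad6 and Smad7 were thus not alike in their estimates, but the difference between them was not tested.

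Among the extracellular inhibitors, Nog encodes noggin, which binds BMP2 and BMP4 and keeps them from their receptors. Nog (ENSMUSG00000048616, GRCm38 chromosome 11, 89300638 to 89302332, minus strand) gave 29.0, 22.2 and 37.1 normalised reads in Emcn+/+ and 37.0, 55.0 and 52.7 in Emcn-/-. Emcn+/+ 3 and Emcn-/- 1 were at the same level, so the genotypes met there, and the other Emcn-/- libraries were higher. The means were 29.5 ± 7.45 and 48.2 ± 9.78, with a log2 fold change of 0.70 ± 0.27 (SE, limma adjusted p = 0.561), or 0.52 without Emcn+/+ 2.

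Bambi, a membrane pseudoreceptor without a kinase domain that takes the place of a type I receptor, gave 129.6, 124 and 143 normalised reads in Emcn+/+ and 197, 148 and 213 in Emcn-/-. All Emcn-/- libraries lay above the Emcn+/+ libraries, Emcn-/- 2 only just (0.47 ± 0.16 SE, limma adjusted p = 0.522). Bmper, an endothelial regulator of BMP4, gave 31.1, 29.7 and 40.4 against 25.3, 35.3 and 25.9 (-0.22 ± 0.25, 0.829), with overlap. The other inhibitor genes Chrd (0.10 ± 0.27), Fst (0.24 ± 0.31) and Grem1 (0.02 ± 0.30) had few reads and wide intervals. The interval of Grem1, for example, ran from -0.67 to 0.71 on the log2 scale, so an Emcn-/- level between 0.628 and 1.63 times that of Emcn+/+ was not separable here.

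The Id genes encode helix-loop-helix proteins that lack a DNA-binding region and hold other transcription factors inactive. Id1 (ENSMUSG00000042745, GRCm38 chromosome 2, 152736251 to 152737410, plus strand) gave 286, 226 and 250.1 normalised reads in Emcn+/+ and 331, 327 and 282 in Emcn-/-. The highest Emcn+/+ library and the lowest Emcn-/- library overlapped by a small margin (means 254 ± 30.3 and 313 ± 27.2; log2 fold change 0.30 ± 0.12 SE, limma adjusted p = 0.561). Id2 gave 333, 254 and 278 against 345, 317 and 289 (0.14 ± 0.12, 0.773). Id3 gave 564, 473 and 509.99 against 516, 560.1 and 713 (0.20 ± 0.12, 0.696). Id4, which is less tied to BMP signalling, gave 1183, 1096 and 1119 against 1166, 1206 and 1193 (0.07 ± 0.06, 0.759).

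Emcn+/+ 2 was the lowest of the 6 libraries for each of the 4 Id genes, whereas the highest library differed among them. Without Emcn+/+ 2 the estimate was 0.05 for Id2, and without Emcn-/- 3 it was 0.06 for Id3. The median deviation of the 4 genes from their mean over the 6 libraries was 0.03, -0.23 and -0.11 on the log2 scale in Emcn+/+ and 0.10, 0.07 and 0.02 in Emcn-/-, with Emcn+/+ 1 above Emcn-/- 3. For the 6 BMP and GDF ligand genes the same measure was 0.09, -0.30 and -0.19 against 0.23, 0.04 and 0.19, again with Emcn+/+ 1 inside the Emcn-/- range. For the 5 receptor-regulated Smads it was -0.03, 0.04 and -0.01 against 0.03, -0.08 and -0.07, within 0.1 of 0 in each library.

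Single libraries carried many of the extremes. Emcn+/+ 2 held the lowest value of the 6 libraries in 15 of the 44 members (34.1%), against 19.4% of all tested genes. Emcn-/- 2 was lowest in 12 members (27.3%, against 15.5%), and Emcn-/- 3 was highest in 15 (34.1%, against 17.9%). Marker sums of tissue next to the retina also differed between libraries. The pigment epithelium list summed to 8227, 3933 and 6509 normalised reads in Emcn+/+ and 9206, 12836 and 12765 in Emcn-/-, with Emcn+/+ 2 lowest and Emcn-/- 2 and 3 highest. All 12 tested pigment epithelium markers had positive estimates, with a median of 0.82, and 9 had an unadjusted p under 0.05. The ciliary body and iris list summed to 7737, 4835 and 6666 against 9239, 10258 and 10286, with all 9 tested markers positive (median 0.61). No pigment epithelium marker was at 0 in any library. Ligands and antagonists of the BMP family are expressed in these tissues too, and the part of such tissue in the values of Bmp2, Bmp4, Bmp7, Ltbp1, Nog and the Id genes was not tested. The astrocyte and stroma lists were likewise lowest in Emcn+/+ 2, and they were highest in Emcn-/- 3. Astrocyte markers summed to 3100, 2559 and 5293 against 3427, 3119 and 5679, with 5 positive and 2 negative estimates. Choroid and sclera stroma markers summed to 1798, 1089 and 1847 against 1936, 1402 and 2758, with 2 positive and 4 negative. The part of these cells was not tested either.

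**Figure D4:**
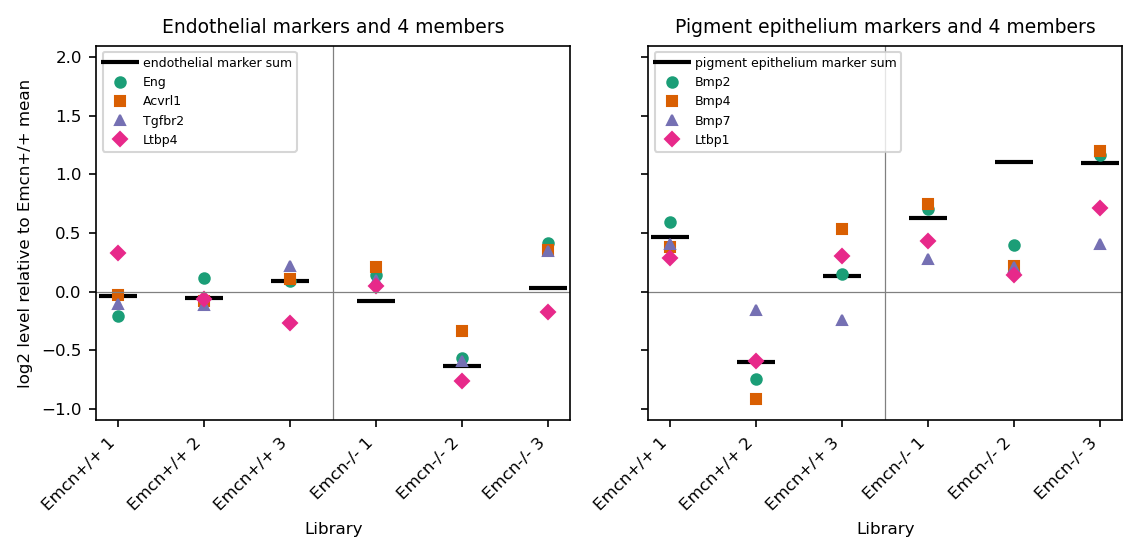
Log2 level of 4 members (coloured symbols) and of the summed marker list (black bars) in each library, relative to the Emcn+/+ mean, for endothelial markers (left) and pigment epithelium markers (right), with the members chosen after their values were seen. On the left, Emcn-/- 2 is lowest for the marker sum and for Eng, Acvrl1, Tgfbr2 and Ltbp4. On the right, Emcn+/+ 2 is lowest for the marker sum (3933 normalised reads) and for Bmp2, Bmp4 and Ltbp1, while Emcn-/- 2 has the highest sum (12836) and the lowest Emcn-/- value of all 4 members.

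The sample titles fall into 2 number series, a first with 2 libraries of each genotype (replicates 1 and 2) and a second with 1 of each (replicate 3), and what the series stand for is not given. In the counts, 26% of genes differed between Emcn+/+ 3 and Emcn-/- 3, against 36.9% and 42.5% between Emcn+/+ 3 and Emcn+/+ 1 and 2. Between Emcn-/- 3 and Emcn-/- 1 and 2 the shares were 27.4% and 27.8%. With the series as a term, 12.5% of all genes had an unadjusted limma p under 0.05, against 8.14% without it. Within the first series, fitted with limma, the log2 fold changes were 0.53 for Tgfbr3, 0.63 for Bmp2, 0.75 for Bmp4, 0.80 for Nog, 0.43 for Bambi, 0.31 for Ltbp3, 0.37 for Id1 and -0.34 for Bmpr2. The differences between the 2 libraries of the second series, which have no replicate, were 0.80, 1.02, 0.66, 0.49, 0.57, 0.22, 0.17 and -0.14 in the same order. Of these 8 genes, 7 were taken for their small p over the same libraries, so like signs in the series are no separate evidence. Smad3, left out of these 8 although it was also among the 8 members of smallest p, was at -0.09 in the first series and -0.32 in the second. Eng was at -0.17 in the first series and 0.32 in the second, and Bmp7 at 0.12 and 0.65.

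Compared per kilobase of exon over all 6 libraries, the module spanned a wide range of levels. Acvr1b (430.5 normalised reads per kb), Bmpr1a (421), Id3 (310.4), Id4 (302), Smad4 (291), Tgfb2 (260.1) and Id1 (245) were highest. Neighbours in this order such as Acvr1b and Bmpr1a, or Id3 and Id4, differed by less than the spread of their libraries. The lowest tested members were Fst (4.10), Bmper (6.47), Chrd (6.50), Grem1 (7.07), Inhba (8.65) and Bmp5 (8.94). The endothelial receptors were between these ends, with Eng at 129.8, Acvrl1 at 44.4 and Tgfbr2 at 32.1. The 4 members with the largest estimates, Bmp2, Bmp4, Nog and Tgfbr3, stood at 26.8, 35.8, 22.9 and 19.2 reads per kb.

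**Figure D5:**
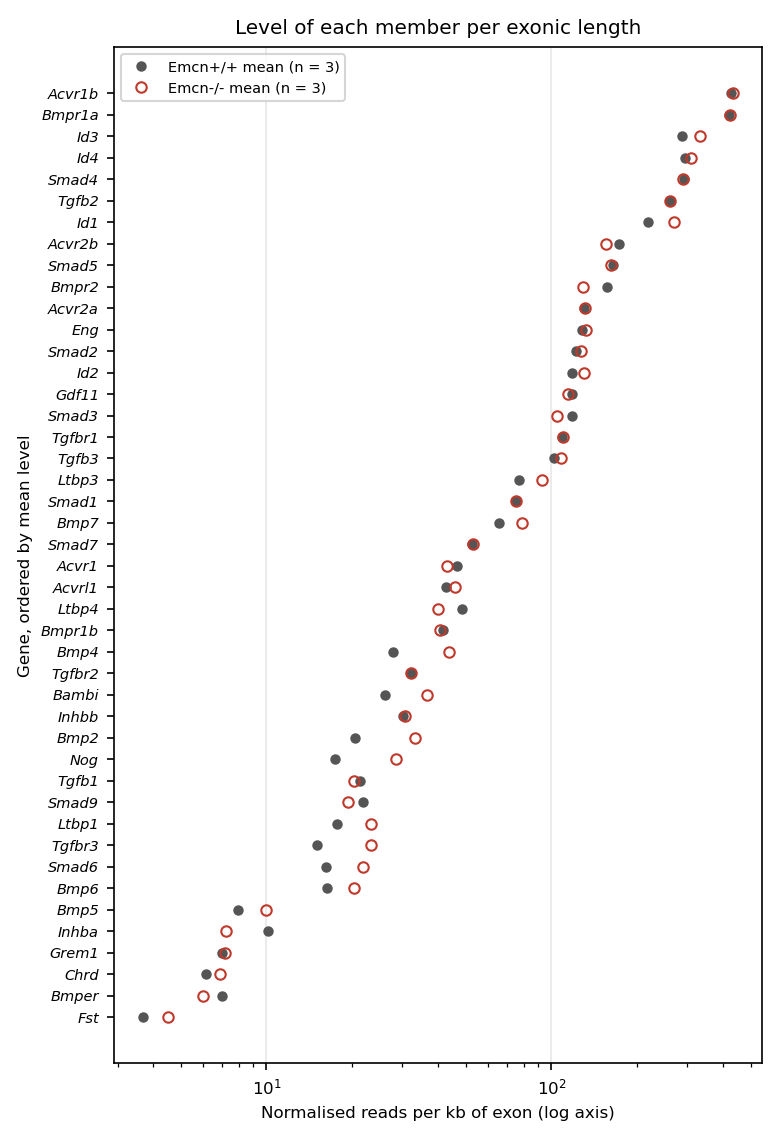
Mean level of the 44 tested members in normalised reads per kilobase of exon (log axis), for Emcn+/+ (filled) and Emcn-/- (open), n = 3 each, ordered by the mean over all libraries. Levels run from 4.10 (Fst) to 430.5 (Acvr1b), and the symbols of both genotypes lie close together for most genes.

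A further 99 pathway genes outside the module, from lists of other ligands, receptors, inhibitors, matrix proteins, intracellular regulators and targets, also held no gene past the adjusted threshold. Of these, 75 were tested, with 38 positive and 37 negative estimates and a median of 0.00. At an unadjusted p under 0.05, 7 were higher and 2 lower, against 3.67% and 4.47% of all genes. The genotypes did not overlap for 3 with higher and 6 with lower Emcn-/- values, against 7.48% and 6.94% of all genes. Matrix and latency genes had 9 positive and 5 negative estimates with a median of 0.21, and 5 of the 7 higher genes were among these 14. Intracellular regulators had 5 positive and 13 negative estimates with a median of -0.06, and both of the lower genes were among these 18.

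The smallest p among them belonged to Nbl1, a secreted BMP antagonist of the DAN family. It gave 837, 695 and 764 normalised reads in Emcn+/+ and 951, 969.9 and 993 in Emcn-/- (log2 fold change 0.35 ± 0.08 SE, limma adjusted p = 0.376), without overlap. Zeb1, a transcriptional repressor that binds Smads, gave 863, 862 and 849.6 against 775, 707 and 775 (-0.19 ± 0.06, 0.522), also without overlap. Among matrix genes, Fmod, a proteoglycan that binds TGF-beta, gave 315, 98.2 and 234 against 489, 299 and 515 (1.12 ± 0.39, 0.522). The microfibril gene Fbn1 (0.54 ± 0.21, 0.566), the TGF-beta activator Thbs1 (0.59 ± 0.25, 0.597) and the integrin gene Itgb8 (0.31 ± 0.13, 0.602) had the same sign, and Emcn+/+ 2 was the lowest library for each of these 4 matrix genes, as it was for the pigment epithelium sum. Without Emcn+/+ 2 the estimates were 0.63 for Fmod, 0.31 for Fbn1, 0.34 for Thbs1 and 0.18 for Itgb8. The deubiquitinase gene Usp15 was at -0.15 ± 0.06 (0.590). With the trend on length removed, Usp15 was at -0.01 and Zeb1 at -0.12.

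Of the targets of TGF-beta Smads, Ccn2, a matricellular protein, gave 279, 254 and 352 normalised reads in Emcn+/+ and 359, 337 and 427 in Emcn-/- (log2 fold change 0.35 ± 0.14 SE, limma adjusted p = 0.569). Only Emcn+/+ 3 reached into the Emcn-/- range. Tgfbi was at -0.09 ± 0.30 (0.949). The list of further targets was not limited to those of TGF-beta Smads and also held genes such as Hey1, Hey2, Atoh8 and Msx1. Its 16 tested genes had 9 positive and 7 negative estimates with a median of 0.06, so they did not share 1 direction.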

How the data were processed

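Poly-A RNA of 6 mouse retina libraries was sequenced, 3 per genotype, per the labels' protocols, and the genome build was GRCm38, per the submitters' processing notes. No aligner, counter, annotation or strand is given in the sources used here. Per gene, the table deposited by the authors gives a read signal that had been scaled by 1 factor per library in a way not stated. Dividing a library by its smallest step turned 100% of its values into whole reads (tolerance 0.001 of a read), and these recovered reads served the count tests. All 6 columns were used (0 left out). Recovered totals were 14865868 to 17087621 reads per library, and limits from counts cover counting error only. In the counts of any pair of libraries 23.7% to 42.7% of genes differed (unadjusted threshold 0.05), so all 6 were counted as separate libraries.

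The main test was limma 3.58.1 (R 4.3.3) on log2(value + 1) with genotype as its single term and a trended prior variance. Adjustment was by Benjamini and Hochberg over 16681 genes, those kept by filterByExpr of edgeR from the recovered reads with a minimum count of 10. Fold changes on that scale understate the change of low genes. The recovered reads were also tested with the quasi-likelihood test of edgeR 4.0.16, which called 1 gene in all, and with DESeq2 1.42.0. Other alternatives were TMM and upper-quartile scaling, the filter, the pseudocount, each library left out, the number series of the titles as a term and removal of a trend on exonic length. The fit of the first number series alone was chosen after seeing the data. Replicate numbers follow the sample order and pair nothing.

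The members, gene lists and markers were chosen with earlier results of these data known. Values in every library are given for 20 members picked by role in vascular signalling and for the 8 members of smallest p. The 8 further pathway genes of smallest p and the targets Ccn2 and Tgfbi are named as well, a further target that the rule names is not reported here, and library values of other members were added after seeing them. Positions and exonic lengths came from GENCODE M21 (GRCm38) by gene ID. Of the 45 members, 15 share exonic bases with another gene. On simulated data for this comparison with all 16681 genes (3 runs, 200 changed genes each), the share of changed genes that limma called was 44.3% at 1.5-fold, 72.6% at 2-fold and 91.4% at 4-fold, and 32 unchanged genes were called over the runs. Each run mixed all 3 sizes of change, and counts were drawn independently for each gene.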

Additional observations from a re-analysis of the deposited data

How the results depend on the processing

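No member passed the adjusted threshold in any of 17 other settings, and 21 of the 44 tested members, among them Tgfbr3, Bambi, Ltbp3, Bmpr2, Bmp2, Bmp4, Bmp7 and the 4 Id genes, kept the sign of their estimate in all of them. Nog, Bmp5, Fst and Bmper kept it in every setting but the minimum mean of 50, which leaves them out. The other 19 changed sign at least once. The setting with the number series as a term could not change a sign, since each series holds equal numbers of both genotypes. The number of genes called over the whole table, 1 in the reported fit, was 0 with a minimum mean of 50 normalised reads, 82 with DESeq2 (67 lower and 15 higher) and 36 with the first number series alone (30 lower and 6 higher). With 1 library left out it ranged from 0 to 147, the latter without Emcn+/+ 3 (110 lower and 37 higher). The cause of these differences was not tested.

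With upper-quartile scaling, log2 fold changes that changed sign were -0.0087 for Tgfb2, -0.0011 for Tgfbr1, -0.0018 for Acvr1b, -0.0017 for Bmpr1a and -0.0022 for Smad7. That scaling moved the median of all genes from 0.01 to -0.00. Tgfb2 was at -0.0089 with edgeR and -0.0067 with DESeq2, and Eng at 0.0419 and 0.0428. With the length trend removed Smad1 was at 0.0211 and Smad5 at 0.0120. In the first number series alone Tgfb1 was at 0.0724, Tgfb3 at -0.0263, Tgfbr1 at -0.0358, Acvrl1 at -0.0066, Acvr2a at -0.0182, Bmpr1a at -0.0265, Bmpr1b at 0.1216, Inhbb at -0.0665, Smad1 at 0.0534 and Smad7 at -0.0685.

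Leaving out each library in turn gave ranges across 0 for Tgfb1 (-0.1944 to 0.1419), Tgfb2 (-0.0746 to 0.0737), Tgfb3 (-0.0177 to 0.1325), Gdf11 (-0.1188 to 0.0337), Inhbb (-0.1282 to 0.1413), Tgfbr1 (-0.0143 to 0.0452), Tgfbr2 (-0.2477 to 0.2231), Acvrl1 (-0.0612 to 0.2828), Eng (-0.2114 to 0.2810), Acvr1b (-0.0450 to 0.0745), Acvr2a (-0.0167 to 0.0524), Bmpr1a (-0.0104 to 0.0280) and Bmpr1b (-0.1050 to 0.0775). The same held for Smad1 (-0.0480 to 0.0700), Smad4 (-0.0699 to 0.0132), Smad5 (-0.0547 to 0.0125), Smad7 (-0.0301 to 0.0740), Chrd (-0.1662 to 0.2714), Grem1 (-0.2125 to 0.2269) and Tgfbi (-0.3672 to 0.2015). The labels give no replicate numbers that could pair libraries, and with the number series of the titles as a term 0 members passed. That term cannot move an estimate, since each series holds equal numbers of both genotypes, so it says nothing about the signs. With 3 libraries per genotype, limma recovered 44.3% of simulated 1.5-fold changes. Those runs held 200 changed genes each and drew every gene independently, whereas 1 gene passed in these data, so the share here may be lower. Differences of the size seen here can be missed.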
